A study of Mus musculus with 4 samples.

Results

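The genes described here encode carriers of amino acids, glucose and lactate at the cell surface and in the lysosome. They were chosen by name, as every gene of the solute carrier families SLC1, SLC2, SLC3, SLC6, SLC7, SLC16, SLC38 and SLC43, which gave 88 of the 24943 genes in the count table. Of these, 85 are transporter genes. The other 3 share only the name pattern: Slc7a6os is an opposite strand gene, Slc6a19os likewise, and Slc2a4rg-ps is a pseudogene. The data are 4 poly(A) RNA-seq libraries of cells from tumour-bearing, enlarged mouse spleen, from a series about a TP63 fusion in lymphoma. All 4 carry the labels lymphoma (tissue), mouse spleen cells and transgenic mouse, and no control group is labelled. The labels give neither the transgene and the promoter that drives it nor strain, age or sex, nor whether the samples came from separate animals, so a part of the differences could be technical. The names lymphoma 1 to lymphoma 4 stand for the titles GW19, GW95, GW255 and GW328 in that order. Comparisons are between single libraries, without a test, and every interval is an exact Poisson 95% interval that covers counting error only.

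Growing lymphocytes take up large neutral amino acids through a pair of proteins, the heavy chain CD98 (Slc3a2) and a light chain such as LAT1 (Slc7a5). They take up glutamine and other small neutral amino acids through ASCT2 (Slc1a5) and the SNAT carriers of the SLC38 family. Glucose enters through GLUT1 (Slc2a1) and GLUT3 (Slc2a3), and the lactate made from it leaves through the monocarboxylate carriers MCT1 (Slc16a1) and MCT4 (Slc16a3). Most other members serve neurons, kidney, gut or liver.

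Total counts ran from 7773546 to 9602413 per library, and levels are given as CPM, counts scaled to a common total with TMM factors. A count of 0 allows up to 3 counts, or between 0.294 and 0.379 CPM. The samples were not sorted for tumour cells, and fewer cells of a type and less RNA per cell cannot be told apart in them. T cell markers summed to 6776, 5273, 917 and 1359.9 CPM in lymphomas 1 to 4 over 16 genes, 12 of them highest in lymphoma 1 and 14 lowest in lymphoma 3, where Themis was at 0. B cell markers summed to 103, 1680, 4887 and 7030.1 CPM over 12 genes, all lowest in lymphoma 1 and none at 0 in any library. The proliferation list summed to 3374, 2508, 4144 and 449 CPM, with 14 of 15 genes lowest in lymphoma 4. Immediate early and stress genes summed to 494, 3835, 381 and 3170 CPM. Of these 10 genes, 8 were highest in lymphoma 2 and 7 lowest in lymphoma 3. Of all genes that reached 1 CPM in at least 1 library, 29.4% were highest in lymphoma 1 and 6.32% in lymphoma 2. Lowest in lymphomas 1, 3 and 4 were 35.7%, 21.3% and 33.2% of them. Lymphomas 1 and 2 may not be independent. Over 71 genes with at least 20 CPM in lymphoma 1 and at most 5% of that level in lymphomas 3 and 4, lymphoma 2 lay at a median of 0.669 of lymphoma 1 (quartiles 0.645 and 0.712), so counts are also given without lymphoma 2.

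Of the 88 members, 22 had no count in any library (33.2% of all genes had none), and 46 reached 1 CPM in at least 1 library (54.3% of all genes did). Only 27 reached 10 CPM in at least 1 library, which is 30.7% of the members and 40.8% of all genes. These 27, of which 25 are transporters, are described one by one. Slc1a4 at 11.9 CPM and Slc2a4rg-ps at 13.4 CPM lay just inside that limit, and Slc16a3 at 7.59 CPM and Slc38a6 at 6.97 CPM just outside it. The opposite strand gene Slc7a6os was at 56.0, 48.3, 70.0 and 40.5 CPM. In all 4 libraries 17 of the 27 stayed at 10 CPM or more, a share near that of all such genes (65.7%).

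**Figure D1:**
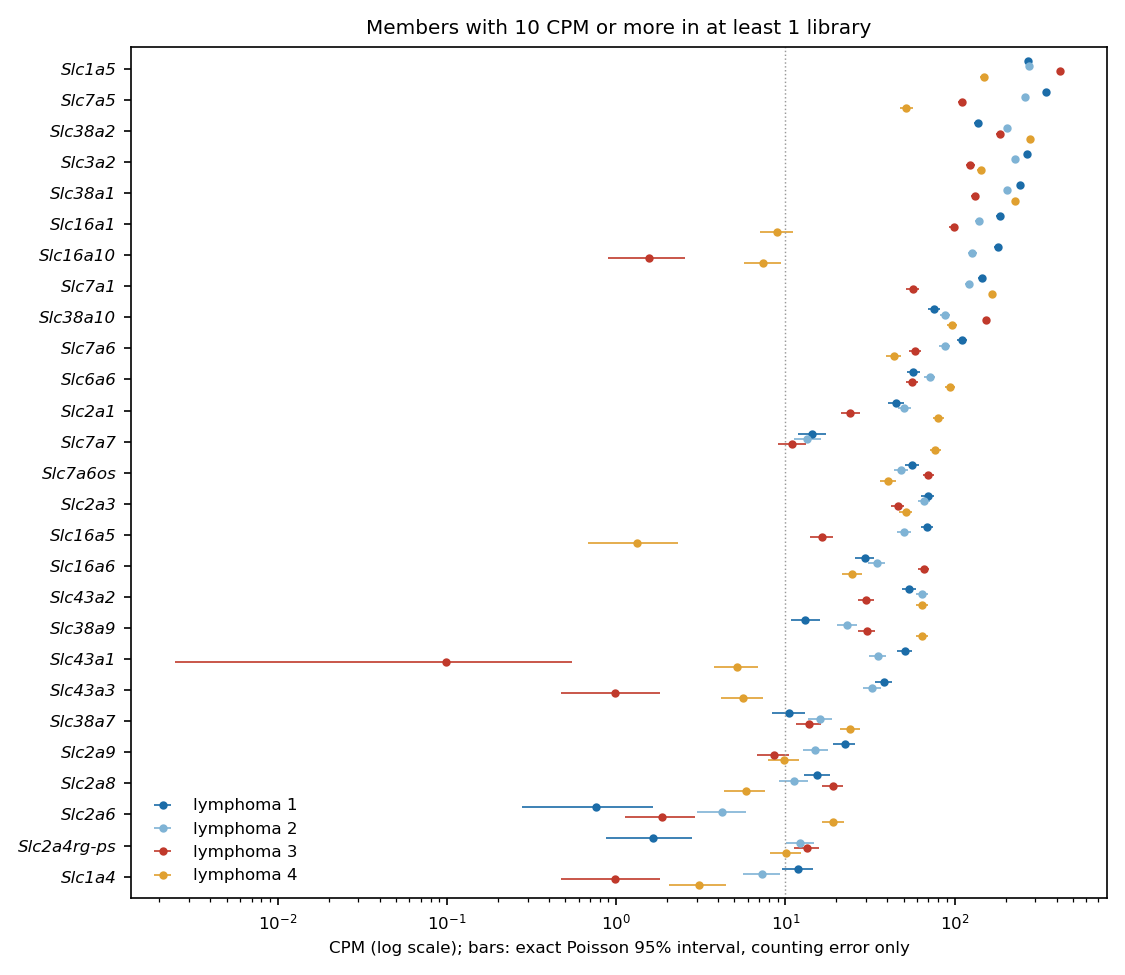
CPM on a log axis (x) of the 27 members that reached 10 CPM in at least 1 library (y), 1 point per library with its exact Poisson 95% interval. Slc1a5, Slc38a2, Slc3a2 and Slc38a1 stay above 100 CPM in every library, whereas Slc16a10, Slc16a1, Slc16a5, Slc43a1 and Slc43a3 are below 10 CPM in at least 1.

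The transporter partner CD98 and its LAT1 light chain were not in step. Slc7a5 (chromosome 8, 121881150 to 121907694, minus strand, GRCm38, protein coding) had 348, 260.1, 111 and 51.9 CPM in lymphomas 1 to 4. The 4 intervals were 336 to 362, 249.6 to 271, 104 to 117 and 47.3 to 56.8 CPM, so each library lay apart from the next beyond counting error. Lymphoma 1 was 6.71-fold above lymphoma 4 (interval 6.09 to 7.42). Slc3a2 (chromosome 19, 8706882 to 8723369, minus strand) was at 267, 227, 124 and 143 CPM, a span of 2.15-fold (2.01 to 2.31), with lymphoma 3 lowest. Per length, on the authors' FPKM scale, the level of Slc7a5 relative to Slc3a2 was 0.753, 0.692, 0.483 and 0.208 in lymphomas 1 to 4. The same ratio from counts per kilobase of exon was 1.24, 1.09, 0.849 and 0.346. Both scales give the same order of libraries, and they differ in whether Slc7a5 or Slc3a2 is the higher in lymphomas 1 and 2.

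Other partners of CD98 followed Slc7a5 or departed from it in lymphoma 4. Slc7a6, the light chain y+LAT2 that exchanges arginine for neutral amino acids, had the same order as Slc7a5 over a smaller span, at 110.0, 87.2, 58.4 and 43.7 CPM. Slc7a7, the light chain y+LAT1 (chromosome 14, 54369442 to 54417780, minus strand), was highest in lymphoma 4, where Slc7a5 was lowest. Lymphomas 1 to 3 had 14.4, 13.5 and 11.0 CPM, with overlapping intervals, and lymphoma 4 had 76.9 CPM (71.3 to 82.8). Its FPKM relative to Slc3a2 was 0.056, 0.067, 0.078 and 0.590. Exons of Slc7a7 overlap those of Oxa1l on the opposite strand, and the strand setting of the counting is not given in the sources used here. Oxa1l was at 148, 113, 143 and 91.2 CPM, lowest in lymphoma 4. Reads of Slc7a7 and Oxa1l in shared exons cannot be told apart without that setting. Macrophages also express Slc7a7. Of 14 macrophage and monocyte markers, 9 were highest in lymphoma 4 (34.0% of all genes that reached 1 CPM were). The other 5 were highest in lymphoma 2 (6.32%). The sum of all 14 was 140.0, 409, 186 and 516 CPM, with Mrc1 and C1qc at 0 in lymphoma 1. Neutrophil markers summed to 28.2, 187, 101 and 658 CPM, with 9 of 11 highest in lymphoma 4 (34.0%) and none at 0 in any library. Their part in the Slc7a7 level was not tested. The remaining measured genes of this group were low: Slc3a1, the heavy chain of kidney and gut, was between 2.78 and 4.62 CPM, and the cystine exchanger gene Slc7a11 had 1 count in lymphoma 2 and 0 elsewhere.

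Slc7a1, the main carrier of arginine and lysine in most cells, was at 145, 122, 56.4 and 167 CPM. Lymphoma 3 was 2.96-fold below lymphoma 4 (2.69 to 3.26), and the 4 intervals did not overlap. The other cationic carriers were near the floor, with Slc7a4 at 4.04 and 2.79 CPM in lymphomas 1 and 2, 0 in lymphoma 3 and 0.220 CPM in lymphoma 4.

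Slc1a5, the glutamine carrier ASCT2 (chromosome 7, 16781340 to 16798274, plus strand), had the highest mean of all members at 279 ± 112 CPM (SD, n = 4). Its values were 271, 275, 422 and 148 CPM in the order of the libraries. Lymphomas 1 and 2 had overlapping intervals, lymphoma 3 was highest (409 to 435) and lymphoma 4 lowest (141 to 157), a span of 2.84-fold. Its order thus differed from that of Slc7a5, which was lower in lymphoma 3 than in lymphomas 1 and 2. In lymphoma 3 the FPKM of Slc1a5 was 82.1 against 34.0 for Slc3a2, a ratio of 2.42, and in the other libraries that ratio was 0.853, 1.03 and 0.791. Slc1a4, which carries alanine and serine, was lowest in lymphoma 3 instead, at 11.9, 7.25, 0.981 and 3.08 CPM. The glutamate carriers were almost without reads except Slc1a1, which had 41 counts in lymphoma 3 (4.02 CPM), 1 in lymphoma 2 and 0 in lymphomas 1 and 4.

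The sodium-coupled SNAT genes include 2 of the most abundant members. Slc38a1, a glutamine carrier, was at 244, 205, 131 and 228 CPM, and Slc38a2, which is induced when amino acids run short, at 138, 204, 185 and 278 CPM. Slc38a1 was lowest in lymphoma 3 and Slc38a2 in lymphoma 1, 1.86-fold and 2.02-fold below the highest library. The lysosomal members leaned towards lymphoma 4. Slc38a9, which senses lysosomal arginine for mTORC1, was at 13.1, 23.1, 30.3 and 64.1 CPM, in 4 intervals that did not overlap. This gene has 16704 exon bases. Longer transcripts were higher in lymphoma 4 than in lymphoma 1 over all genes (rho -0.352), though hardly over the 27 members (-0.016). The part of length in its level was not tested. Slc38a7, a lysosomal glutamine carrier, was at 10.5, 16.1, 13.7 and 24.2 CPM, and only lymphoma 4 lay apart from all others. Slc38a10 had its highest value of 154 CPM in lymphoma 3 and 75.5, 87.9 and 96.4 CPM in the other libraries. Of the 7 genes of this group with 1 CPM or more in a library, 5 were lowest in lymphoma 1 (35.7% of all genes were) and 0 in lymphoma 4 (33.2%), where the summed level of all 11 was also highest (697 CPM, against 484, 541 and 522 CPM in lymphomas 1 to 3).

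All 3 genes of the SLC43 family were lowest in lymphoma 3. Slc43a1 encodes LAT3 and Slc43a2 LAT4, carriers of branched-chain and other large neutral amino acids, while Slc43a3 carries purine nucleobases. Slc43a1 (chromosome 2, 84838850 to 84863594, plus strand) had 401, 314, 1 and 47 counts, or 50.7, 35.0, 0.0981 and 5.17 CPM. With 1 count in lymphoma 3 the ratio of lymphoma 1 to it was 516, with a counting interval from 92.1 to 20438. Slc43a3 lies near Slc43a1 on the same chromosome (84936579 to 84958509, plus strand) and had the same order, at 38.02, 32.6, 0.981 and 5.61 CPM. Slc43a2 was present in every library, at 53.8, 64.2, 30.03 and 64.2 CPM. Without Slc43a2, this family was thus near the floor in lymphoma 3 and low in lymphoma 4. T cell markers were also lowest in lymphoma 3 (14 of 16, against 21.3% of all genes), and their part in the 2 low genes was not tested.

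**Figure D2:**
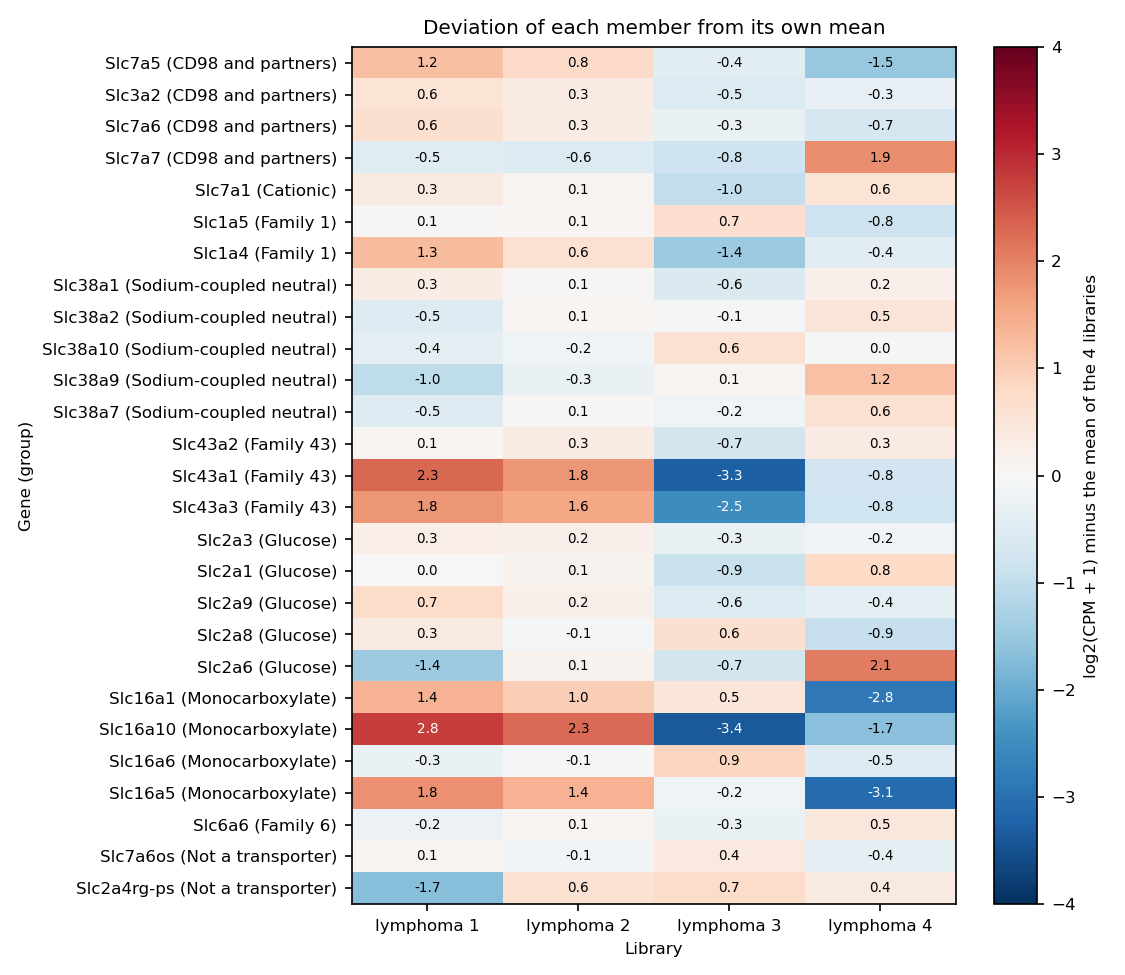
Deviation of log2(CPM + 1) from the gene's own mean over the 4 libraries (colour and printed value) for the 27 members (rows, by group) in each library (columns). Slc43a1, Slc43a3 and Slc16a10 are high in lymphomas 1 and 2 and lowest in lymphoma 3, Slc16a1 and Slc16a5 are lowest in lymphoma 4, and Slc7a7 and Slc2a6 are highest there.

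The glucose carriers GLUT1 and GLUT3 were expressed in every library. Slc2a1 was at 45.1, 50.5, 24.2 and 79.9 CPM, with lymphoma 4 above and lymphoma 3 below the rest beyond counting error, 3.30-fold apart (2.85 to 3.83). Slc2a3 was the more even, at 69.3, 65.6, 46.1 and 51.3 CPM, a span of 1.504-fold (1.33 to 1.70). Per length Slc2a1 was the higher of the pair in each library: their FPKM ratio was 1.10, 1.34, 1.05 and 2.82 in lymphomas 1 to 4, and the ratio from counts per kilobase 1.34, 1.59, 1.09 and 3.22. Slc2a6, an intracellular carrier found in leukocytes, was at 0.758, 4.24, 1.86 and 19.1 CPM, and lymphoma 4 was 25.2-fold above lymphoma 1 (11.4 to 69.7). It was thus highest in the library where most macrophage and neutrophil markers were also highest. Of all genes that reached 1 CPM, 34.0% were highest there. There, too, 7 of 9 dendritic cell markers (sums 105, 139, 50.05 and 201 CPM, Zbtb46 and Xcr1 at 0 in lymphoma 1), 6 of 9 NK and cytotoxic markers (1039, 899, 90.5 and 252 CPM, Prf1 at 0 in lymphoma 1) and 8 of 12 B cell markers were highest. The part of these cell types in the Slc2a6 and Slc7a7 levels was not tested. Slc2a9, a urate carrier, was at 22.4, 15.1, 8.54 and 9.79 CPM, and Slc2a8 at 15.4, 11.3, 19.1 and 5.83 CPM. The insulin-responsive carrier gene Slc2a4 and the liver carrier gene Slc2a2 stayed at or under 0.223 CPM in every library.

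The lactate carrier MCT1 was low in 1 tumour. Slc16a1 (chromosome 3, 104638668 to 104658462, plus strand) was at 186, 139, 98.8 and 8.91 CPM in lymphomas 1 to 4. It was the only member that stood apart in a library, defined as lying 8-fold or more from the nearest other library in CPM + 1. Over all genes 0.465% stood apart below in lymphoma 4, and 3.54% in any library and direction. Lymphoma 1 was 20.9-fold above lymphoma 4 (16.7 to 26.4). Slc16a3, the MCT4 gene of strongly glycolytic cells, was at 6.69, 5.24, 4.71 and 7.59 CPM, so it stayed below 10 CPM in lymphoma 4 too. The FPKM ratio of Slc16a1 to Slc16a3 was 14.2, 11.2 and 14.9 in lymphomas 1 to 3 and 0.649 in lymphoma 4. From counts per kilobase it was 33.4, 31.9, 25.2 and 1.41, so the 2 scales differ in which gene was the higher in lymphoma 4. Proliferation genes were also lowest in lymphoma 4 (14 of 15, against 33.2% of all genes), and their part in the Slc16a1 level was not tested.

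Slc16a10 and Slc16a5 spanned wider still. Slc16a10, the aromatic amino acid carrier TAT1 (chromosome 10, 40033532 to 40142258, minus strand), was at 180.0, 127, 1.57 and 7.37 CPM. It had 16 counts in lymphoma 3, and lymphoma 1 was 115-fold above it (70.3 to 201). Its order of libraries was that of Slc43a1, Slc43a3 and the summed T cell markers, whose part was not tested. Slc16a5, a carrier of less well known substrates, was at 68.7, 50.4, 16.4 and 1.32 CPM, 52.1-fold between lymphomas 1 and 4 (29.6 to 101), in the order of Slc16a1. Slc16a6 differed from both at 29.4, 34.6, 65.7 and 24.8 CPM, highest in lymphoma 3. Its exons overlap those of Amz2 on the opposite strand, which was at 72.4, 50.4, 90.2 and 25.5 CPM and was also highest in lymphoma 3 and lowest in lymphoma 4. Reads of the pair cannot be told apart without the strand setting.

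The promoters of 3 members are shown as examples. Slc16a1 had the highest mean of the monocarboxylate genes, and Slc16a10 and Slc7a7 were added after their values were seen. Each sequence is the 250 bases before a RefSeq start on GRCm38.p6, written 5′ to 3′ on the gene's strand, and capitals mark a match to a motif searched on both strands. The motifs were the E-box CACGTG, bound by MYC and MAX among others, the hypoxia element ACGTG, which every E-box contains, and the amino acid response element TGATGNAA. The windows are chr3:104638414-104638663 for Slc16a1 (plus strand), chr10:40142255-40142504 for Slc16a10 (minus) and chr14:54417945-54418194 for Slc7a7 (minus), the last being 1 of 5 RefSeq starts of that gene. In GENCODE the windows of Slc16a1 and Slc7a7 held 0 exon bases and that of Slc16a10 held 4.
Slc16a1: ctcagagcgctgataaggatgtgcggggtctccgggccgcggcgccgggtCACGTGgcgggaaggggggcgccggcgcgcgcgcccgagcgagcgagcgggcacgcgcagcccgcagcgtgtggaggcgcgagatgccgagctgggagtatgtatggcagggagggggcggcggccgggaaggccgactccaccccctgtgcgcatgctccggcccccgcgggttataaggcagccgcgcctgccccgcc
Slc16a10: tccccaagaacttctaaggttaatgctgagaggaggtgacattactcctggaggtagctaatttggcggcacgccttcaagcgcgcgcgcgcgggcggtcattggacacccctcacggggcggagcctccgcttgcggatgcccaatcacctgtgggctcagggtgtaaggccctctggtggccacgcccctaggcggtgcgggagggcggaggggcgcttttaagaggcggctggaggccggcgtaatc
Slc7a7: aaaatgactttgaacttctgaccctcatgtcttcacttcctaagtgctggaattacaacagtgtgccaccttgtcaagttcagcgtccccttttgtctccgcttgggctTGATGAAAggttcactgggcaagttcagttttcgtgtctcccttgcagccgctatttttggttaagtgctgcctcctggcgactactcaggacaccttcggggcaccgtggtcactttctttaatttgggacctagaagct
Slc16a1 held an E-box 200 bases before the start, the printed Slc7a7 window held TGATGNAA 141 bases before it, and Slc16a10 held none of the motifs. A second Slc7a7 start had TGATGNAA 243 bases before it, and the windows of the remaining Slc7a7 starts held none of the motifs. Windows of Slc2a6, Slc1a4, Slc38a2 and 1 start of Slc7a1 also held none of the motifs and at most 2 exon bases, and are not printed. Slc1a4, Slc38a2 and Slc7a1 had the highest mean of their groups among genes with a RefSeq promoter. Of 84 RefSeq promoters of 63 members, 11.9% held an E-box, 23.8% ACGTG and 4.76% TGATGNAA, against 6.02%, 16.6% and 3.45% of all 32851 promoters. A match describes letters only, and a window without a match says nothing about the factor.

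In the SLC6 family, whose members carry neurotransmitters, taurine, creatine and amino acids, 1 gene was well expressed. Slc6a6, the taurine carrier, was at 57.1, 71.2, 55.9 and 93.6 CPM, and lymphoma 4 lay above the others beyond counting error. The serotonin carrier gene Slc6a4 had 32 and 38 counts in lymphomas 1 and 2 and 0 in lymphomas 3 and 4. The creatine carrier gene Slc6a8 had 3.16 and 3.23 CPM in lymphomas 1 and 2 but 0.785 and 0.770 CPM in the others. Slc6a17 had 51 counts in lymphoma 3, 1 in lymphoma 2 and 0 in the others. Of the 21 genes of this family, 8 reached 1 CPM in a library.

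**Figure D3:**
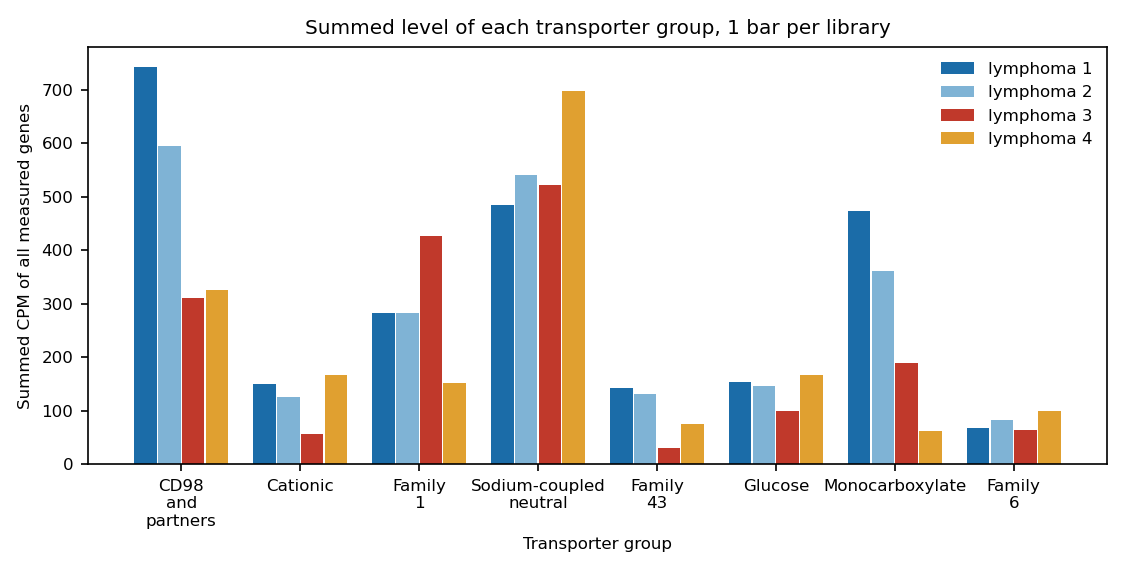
Summed CPM (y) of all measured genes of each transporter group (x), 1 bar per library, with no error bar since each bar is 1 library. The monocarboxylate group goes from 473 CPM in lymphoma 1 to 62.9 CPM in lymphoma 4, and the CD98 group from 743 CPM in lymphoma 1 to 311 CPM in lymphoma 3.

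Summed over groups, the order of the libraries differed from group to group. The CD98 group of 12 genes summed to 743, 595, 311 and 325 CPM in lymphomas 1 to 4 and the 14 monocarboxylate genes to 473, 361, 189 and 62.9 CPM. The family with ASCT2 was instead highest in lymphoma 3, at 283, 283, 427 and 152 CPM. The 12 glucose carriers summed to 153, 147, 100.1 and 167 CPM. Per length, the highest member by FPKM was Slc3a2 in lymphoma 1 (58.3) and lymphoma 4 (34.5), and Slc1a5 in lymphoma 2 (54.0) and lymphoma 3 (82.1). In lymphoma 4 Slc7a7 (20.4) and Slc2a1 (18.96) were the fourth and the fifth highest, and Slc7a5 at 7.18 FPKM was below both. The per-length scale depends on transcript models, and by counts per kilobase of exon Slc7a5 was the highest in lymphomas 1 and 2 (94.0 and 70.1 CPM per kilobase).

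**Figure D4:**
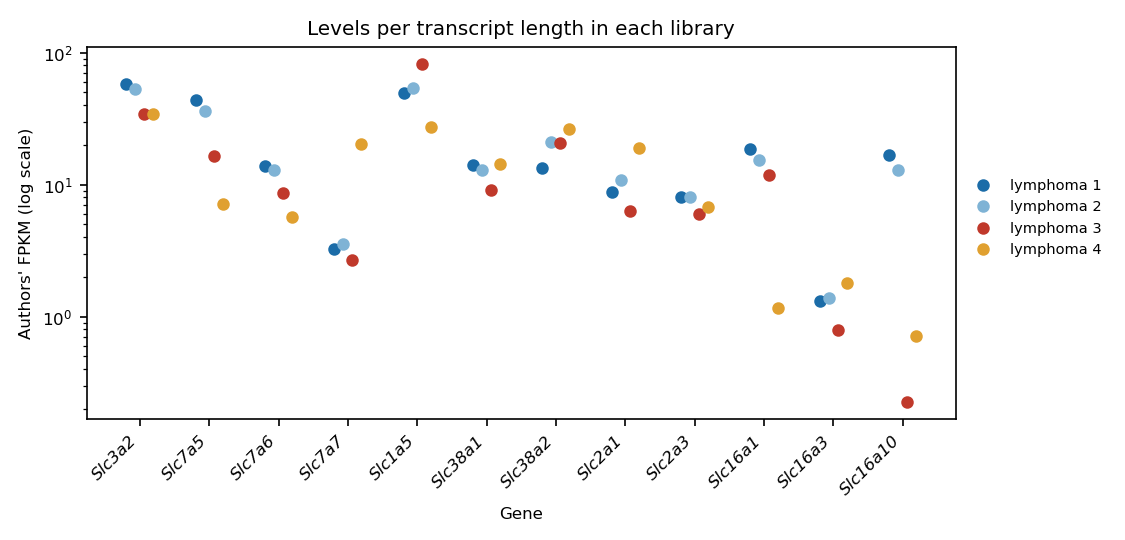
Authors' FPKM on a log axis (y) for 12 transporter genes (x), 1 point per library. Slc7a5 spans 7.18 to 43.9, Slc16a1 1.17 to 18.5 and Slc7a7 2.66 to 20.4, while Slc2a3 stays between 6.003 and 8.10.

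Across the members, 6 of the 46 that passed 1 CPM differed 8-fold or more in CPM + 1 between the highest and the lowest library, against 16.3% of all such genes. These 6 were Slc16a1, Slc16a5, Slc16a10, Slc43a1, Slc43a3 and Slc2a6, a share near the background. All 6 are among the 27 members with 10 CPM or more, where the background was 20.4%. A 4-fold difference was reached by 18 of the 46 (35.7% of all genes) and by 11 of the 27 (38.5%). Without lymphoma 4 the 8-fold number was 3 (Slc16a10, Slc43a1 and Slc43a3), or 7.14% of members against 8.77% of all genes. Without lymphoma 1 or 3 it was 5, or 10.9% and 11.9%, against 10.4% and 10.8% of all genes. Without lymphoma 2 it was 6, or 13.3% against 16.2%. The member shares thus stayed near those of all genes. Among the 27 members with 10 CPM or more, 12 were highest in lymphoma 1 (34.5% of all such genes were), 1 in lymphoma 2 (4.41%), 6 in lymphoma 3 (30.5%) and 8 in lymphoma 4 (30.7%). Lymphoma 3 was the lowest library for 13 of them, or 48.1%, against 21.8% of all such genes. Without lymphoma 2 it was again lowest for 13 of 27, against 24.3% of all genes. Lymphoma 1 was lowest for 6 (34.8% of all genes), lymphoma 2 for 0 (4.17%) and lymphoma 4 for 8 (38.4%). Of the 46, 14, 4, 12 and 16 were highest in lymphomas 1 to 4, against 29.4%, 6.32%, 30.4% and 34.0% of all genes that reached 1 CPM. The lowest library was lymphoma 1 for 10 of the 46 (35.7% of all genes), lymphoma 2 for 0 (5.07%), lymphoma 3 for 17 (21.3%) and lymphoma 4 for 9 (33.2%). The members' median log2(CPM + 1) was 3.75, 3.79, 2.79 and 2.94 for the 46, while that of all genes was 4.23, 4.56, 4.59 and 4.44. Over all 88 members it was 0, 0.29, 0.14 and 0.41. Longer transcripts were higher in lymphoma 4 than in lymphoma 1 over 10095 genes, with a Spearman rho of -0.352 between exon length and the log2 ratio of lymphoma 1 to 4. Over the 27 members that rho was -0.016.

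The enzymes that use what these carriers bring in were most often highest in lymphoma 1. Of the glycolysis and lactate enzymes 21 reached 1 CPM, and of these 13 were highest in lymphoma 1 (29.4% of all genes were) and 10 lowest in lymphoma 4 (33.2%). Their medians were 6.70, 6.37, 6.004 and 6.15 log2(CPM + 1), lowest in lymphoma 3. Ldha, which makes lactate, was at 3485, 2474, 1530 and 274 CPM, the order of libraries of Slc16a1. Gapdh had the same order at 4654, 3232, 2052 and 531 CPM, whereas Ldhb was lowest in lymphoma 3 at 125, 82.0, 0.491 and 8.91 CPM. Eno1 was listed at 0 in all libraries, so the list lacks a main glycolysis gene. Of 16 glutamine and glutamate enzymes 11 were highest in lymphoma 1 and 9 lowest in lymphoma 4 (medians 6.69, 6.29, 6.11 and 5.59). Got2, the mitochondrial aspartate aminotransferase gene, was at 547, 400.5, 285 and 156 CPM, and Gmps, which uses glutamine to make GMP, at 301, 226, 122 and 54.8 CPM.

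Among 17 serine, proline, asparagine and arginine enzymes 12 were highest in lymphoma 1 (29.4% of all genes) and 13 lowest in lymphoma 4 (33.2%). Their medians were 6.56, 6.13, 5.70 and 4.15. Phgdh, which opens serine synthesis, was at 1021, 694, 254 and 120.1 CPM, and the asparagine synthetase gene Asns at 105, 69.3, 22.7 and 4.84 CPM. Proliferation genes were likewise lowest in lymphoma 4 (14 of 15), and their part in the levels of these enzymes was not tested. Bcat1, which acts on branched-chain amino acids, was highest in lymphoma 3, at 40.3, 29.8, 61.4 and 1.21 CPM. The amino acid stress list had medians of 4.83, 5.27, 4.51 and 4.53, highest in lymphoma 2. Of its 14 genes 7 were highest in lymphoma 1 (29.4% of all genes were) and 4 in lymphoma 2 (6.32%). Lowest in lymphoma 3 were 6 (21.3%). Atf4, its transcription factor, was lowest in lymphoma 1 and highest in lymphoma 3, at 165, 216, 279 and 249 CPM. Stc2, a secreted stress glycoprotein gene, was at 30.2, 24.8, 0.196 and 2.42 CPM.

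Of 26 mTORC1 and lysosomal sensing genes 13 were lowest in lymphoma 1 (35.7% of all genes were), 7 were highest there (29.4%) and 7 were lowest in lymphoma 4 (33.2%). Their medians were 4.68, 5.12, 5.48 and 5.32, against 4.23, 4.56, 4.59 and 4.44 for all genes. Both had their minimum in lymphoma 1 and their maximum in lymphoma 3, but lymphomas 2 and 4 came in opposite order. Rheb, the activator of mTORC1, was highest in lymphoma 1, at 140.3, 116, 62.6 and 54.8 CPM, and Rragd, a Rag GTPase gene, was at 2.02, 3.46, 39.0 and 0.88 CPM. Genes for partners and regulators had medians of 6.06, 6.47, 5.19 and 5.60, with 8 of 16 lowest in lymphoma 3 (21.3% of all genes were). In lymphomas 1 and 4, 7 genes each were highest (29.4% and 34.0%). Bsg, the chaperone of MCT1 and MCT4, was at 417, 309.7, 118 and 126 CPM. Emb, a related chaperone gene, was at 419, 281, 12.2 and 50.6 CPM. Prdx1, a peroxiredoxin gene, had the highest mean of the list at 1098, 794, 427 and 291 CPM. Txnip, which promotes the removal of GLUT1 from the surface, was highest in lymphoma 4, at 256, 390.3, 172 and 851 CPM, where Slc2a1 was also highest. Myc, a known activator of Slc7a5, Slc1a5 and Ldha, was at 112, 149, 151 and 219 CPM, highest in lymphoma 4, where those 3 genes were lowest. The part of Txnip and Myc in the levels of these genes was not tested. Hypoxia response genes had medians of 3.24, 3.43, 2.84 and 3.19, and Egln3 was at 284, 183, 0.0981 and 7.26 CPM.

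**Figure D5:**
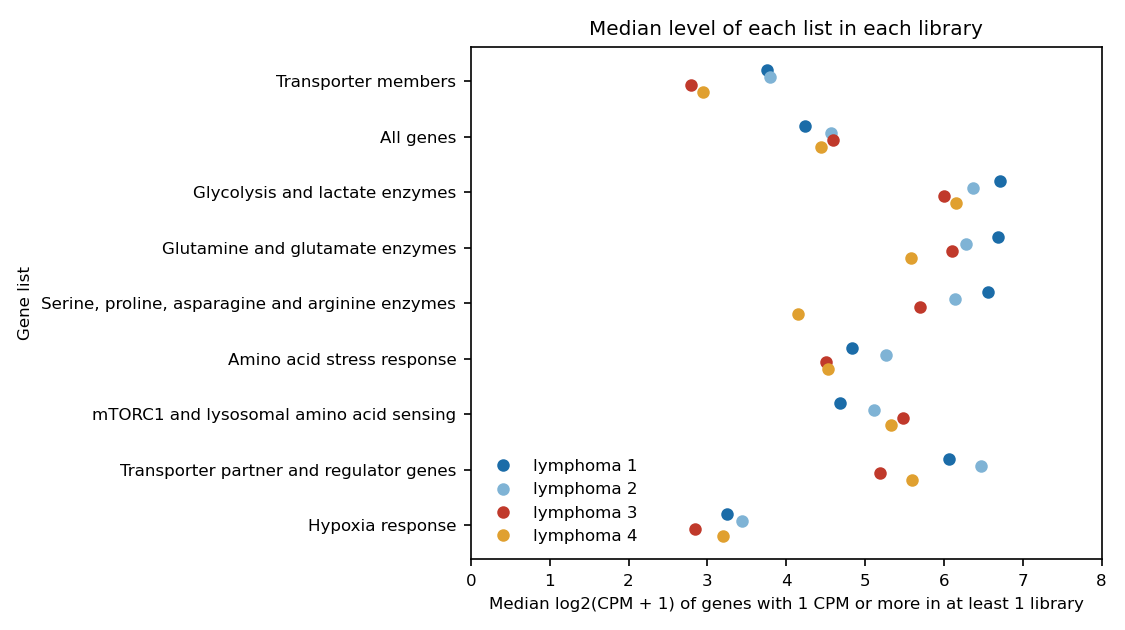
Median log2(CPM + 1) (x) of the transporter members, of all genes and of 7 pathway lists (y) for the genes that reached 1 CPM, 1 point per library. The serine list goes from 6.56 in lymphoma 1 to 4.15 in lymphoma 4, and the transporter members from 3.79 in lymphoma 2 to 2.79 in lymphoma 3.

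The ratio of lymphoma 2 to lymphoma 1 varied among the members. Lymphoma 2 was at 0.706 of lymphoma 1 for Slc16a10, 0.691 for Slc43a1, 0.734 for Slc16a5, 0.749 for Slc16a1 and 0.747 for Slc7a5. Slc43a3 was at 0.856, Slc1a5 at 1.01, Slc38a2 at 1.49 and Slc2a6, which has low counts in lymphoma 1, at 5.59. The median was 0.669 over the 71 genes chosen for a level in lymphomas 3 and 4 far below that in lymphoma 1. Whether lymphomas 1 and 2 share cells was not tested.

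Of the 19 members between 1 and 10 CPM, a few were found in single libraries. Slc7a9, a kidney and gut light chain, had 23 counts in lymphoma 3 and 0 elsewhere, and Slc6a19, a neutral amino acid carrier of kidney and gut, had 13 counts in lymphoma 2 and 0 elsewhere. Slc16a7, the MCT2 gene, had 8 and 55 counts in lymphomas 2 and 4 and 0 in lymphomas 1 and 3. Slc7a10 had the same pattern with 6 and 28 counts. These genes, and the others below 10 CPM named above except Slc16a3 and Slc38a6, were chosen after their values were seen. At 0 counts the depth allows up to 3 counts in a library, so absence cannot be told from a low level. The 20 members that had some reads but stayed below 1 CPM reached at most 0.883 CPM, and no member with 0 counts exceeded 0.0261 FPKM in the authors' table.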

How the data were processed

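Poly(A) RNA from spleen cells depleted of red cells was sequenced in 4 libraries, which share every label and form 1 group. The submitters' processing notes name STAR 2.4.2a, Cufflinks 2.2.1 and mm10. The authors deposited whole-number gene counts (STAR) and a Cufflinks table, taken as FPKM since it states no unit, whose 5 columns matching no sample were not used. Which annotation, strand setting or filter was applied is not stated there. A set of 26 rows named by dates (0.191% to 0.201% of counts) was removed, leaving 24943 genes.

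CPM used edgeR 4.0.16 TMM factors (0.838 to 1.17), estimated in R 4.3.3 on the 13543 genes that reached 1 CPM in any library. GENCODE M21 (GRCm38, also called mm10) gave gene positions and exon lengths, by symbol, for all 88 members. Intervals are exact Poisson, and those of ratios are exact binomial (scipy 1.17.1). Size rules were 8-fold in CPM + 1 for a spread, and 8-fold from the nearest library with 10 CPM or more in the high libraries for standing apart. These rules were tried on counts simulated with a smaller spread between libraries than these data have. That trial cannot give their error rate here. Members with 10 CPM or more in a library are named, others by counts. From 7 pathway lists the gene with the highest mean and that with the largest SD are named, plus Ldha, Bsg, Myc, Txnip, Atf4 and Asns. Promoters that overlap annotated exons by more than 30 bases were searched for motifs but are not printed. Most windows with less overlap are not printed either. Of the list genes 2 were not matched. The members and lists were chosen with earlier results of these data known. Alternatives were DESeq2 1.42.0 size factors, other filters, a pseudocount of 0.25 CPM, a 4-fold rule, the FPKM table, transporter genes only, and leaving out each library. Depth is 7773546 to 9602413 counts, and intervals do not cover the spread between animals.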

Additional observations from a re-analysis of the deposited data

Results flagged for a closer look

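Among 53 values examined, 2 had a library far from the other 3, and chance gives about 1 in 20 at this limit. Slc7a7 was at 76.9 CPM in lymphoma 4, with the other 3 libraries close together. Slc2a4rg-ps, the pseudogene that matches the name pattern, had 1.64 CPM in lymphoma 1, while the other libraries had 12.3, 13.4 and 10.1 CPM.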

How the results depend on the processing

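No paired analysis was possible because the samples form 1 group. For the 27 named members, 214 differences between the highest and the lowest library were recomputed. Of these, 0 reversed and 211 moved by less than 1 SD of the libraries. The high and low libraries were fixed from the main values, and a gene's SD grows with its difference, so these counts are a weak check. Slc43a1 went from a log2 difference of 5.56 to 3.41 in FPKM and still stayed within its SD. The 3 that moved further were Slc1a4, Slc38a9 and Slc2a4rg-ps, each in FPKM. Of 200 values over lists and counts, 153 kept within their limits. The 8-fold count of 6 became 17 with a pseudocount of 0.25 CPM and 18 with the 4-fold rule (35.7% of all genes). With a library left out it was 3 to 6, against 8.77% to 16.2% of all genes. The count standing apart, 1, became 2, 4 and 0 with that pseudocount, the 4-fold rule and FPKM, and was 2 to 3 with a library left out. No share of all genes is given for these standing apart counts, nor for counts with that pseudocount, FPKM, DESeq2 size factors or another filter. Such counts cannot be read as particular to the members. Member medians of 3.75, 3.79, 2.79 and 2.94 became 0, 0.29, 0.14 and 0.41 without a filter, 5.72, 5.66, 4.95 and 5.46 at a mean of 5 CPM or more, and 1.26, 1.46, 0.95 and 1.17 in FPKM. That of lymphoma 3 was 2.82 to 3.35 with another library left out. Members highest in lymphoma 2 (4) were 11 without a filter, 1 with DESeq2 size factors and 0 at a mean of 5 CPM. With a library left out they were 6 to 17, against 12.5% to 30.6% of all genes. Those highest in lymphoma 3 (12) were 7 at that mean, and in lymphoma 4 (16) 25 without a filter. With a library left out, 42 to 46 members were compared, and shares of all genes are in brackets. Lowest were 12 to 16 in lymphoma 1 (38.7% to 45.4%) and 2 to 5 in lymphoma 2 (8.90% to 26.6%). For lymphoma 3 the number was 18 to 26 (23.9% to 38.9%), and for lymphoma 4 it was 8 to 19 (33.8% to 44.3%). Lowest in lymphoma 2 (0) were 2 without a filter and 1 in FPKM. Pathway medians averaged over libraries became 3.65 (glycolysis, from 6.31), 3.61 (glutamine, 6.17), 4.02 (serine, 5.64), 2.98 (stress, 4.78), 2.84 (mTORC1, 5.15), 3.29 (partners, 5.83) and 1.94 (hypoxia, 3.18) in FPKM. At a mean of 5 CPM they were 6.66 for glycolysis and 3.603 for hypoxia. Transporter group medians rest on 2 to 8 genes and are not given. No library has a replicate of its own, and a level under 3 counts cannot be told from 0.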
